A study of Mus musculus with 2 samples.

Results

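Immediate early genes are switched on within minutes of a stimulus, from factors already present in the cell. The 10 described here are Fos, Fosb, Jun, Junb, Egr1, Ier2, Ier3, Nr4a1, Dusp1 and Zfp36, chosen by name, with every probe set that carries such a gene as its only symbol in the platform's annotation. They were read by 11 probe sets, of 34945 with a single symbol, and make up 10 of the 18193 genes so measured. The 2 samples are pancreatic islets from male mice, 6 weeks old, on Affymetrix expression arrays. The transgenic sample carries the genotype miR-141/200c overexpression and is titled Ripmir, and the control sample is Bl6, the C57BL/6 strain. The labels call the tissue islets and the source beta cells. Neither the promoter of the transgene nor the number of mice per sample is given in the sources used here. Both samples were isolated islets with no further treatment before RNA extraction, so no level before isolation was measured here. Each genotype has 1 array (n = 1). Replicate error is therefore unknown and no test was made, and higher and lower refer to these arrays alone.

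The immediate early programme is launched by MAP kinase, calcium and cyclic AMP signals that act on serum response factor, its ETS partners and CREB at the gene promoters. The messages are short-lived, because AU-rich elements mark them for decay. Their products are transcription factors, together with feedback proteins that end the signal. In islets, glucose and depolarisation are known to induce Fos, Egr1 and Nr4a1 in beta cells, and the digestion and handling used to isolate tissue are known to induce the same genes. For that reason they are commonly read as a sign of isolation stress.

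The microRNAs of the transgene, small RNAs that repress messages with matching sites, are shown because they are what separates the genotypes by design. Capitals mark the seed, bases 2 to 8 from the 5' end. The sequences are from RefSeq (GRCm38.p6, minus strand, chr6:124717917-124717938 and chr6:124718324-124718346).
mmu-miR-141-3p: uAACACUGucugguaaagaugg
mmu-miR-200c-3p: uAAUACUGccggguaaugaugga
From miR-141-3p to miR-200c-3p the seeds differ by C4U, with positions counted from the 5' end. A search of the members' messages for seed sites was not run here.

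All 10 immediate early genes had signal well above the background level in both islet samples, and none differed 2-fold between them. Values are log2 expression values from RMA. The method subtracts background, gives the single probes of all arrays the same distribution, and then combines each probe set into 1 value. Each of the 11 probe sets lay above 7.84 on the transgenic array and above 7.78 on the control array, the 75th percentile of all values on each. All therefore also exceeded the floor of 5.76, the median of all values, which 12143 genes reached on at least 1 array. Of the 10 genes, each taken at the probe set with the higher mean, 8 were lower and 2 were higher in the transgenic sample. Among all kept genes, taken the same way, 45.7% had a difference below 0. With probe sets averaged, Jun changed sides, and 7 members were lower and 3 higher. The members' differences, transgenic minus control, ran from -0.60 to 0.09 with a median of -0.16, beside 0.029 for all kept genes. At the 2-fold size no member was higher, where 2.51% of kept genes were, and no member was lower, where 0.511% were. At the 1.5-fold size no member was higher (7.73% of kept genes) and 1 was lower (3.14% of kept genes), which was Fos. In whole islets, fewer cells of a type and less RNA per cell cannot be told apart.

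**Figure D1:**
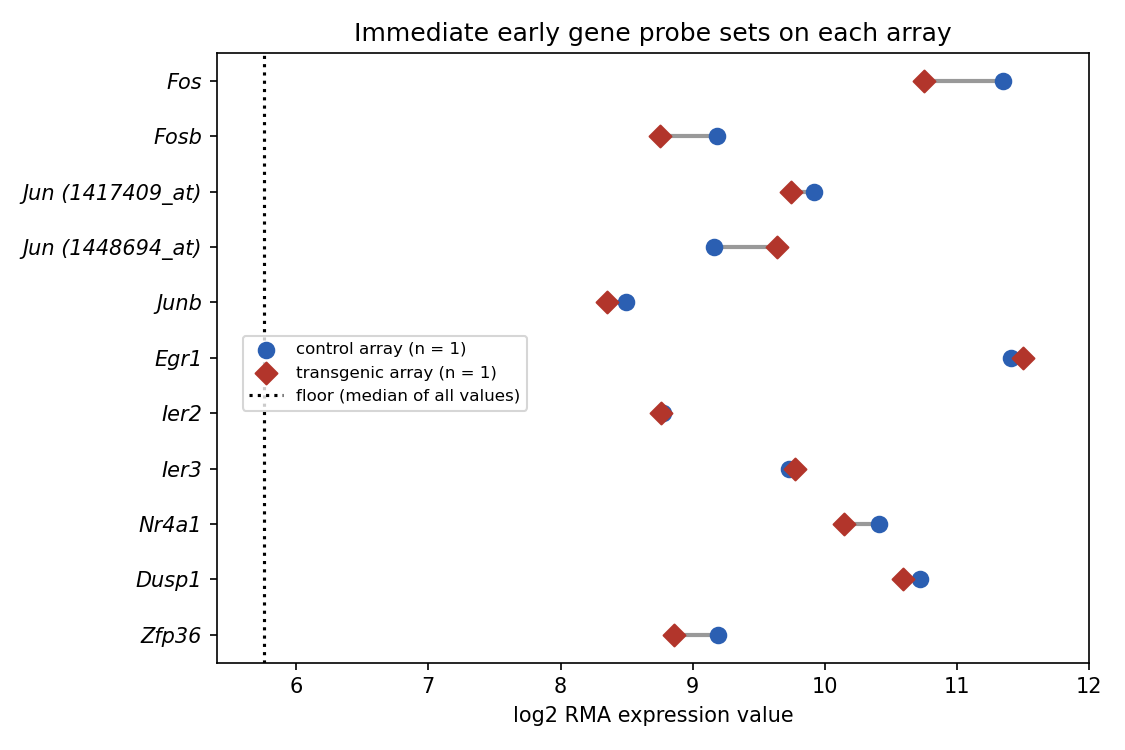
Log2 RMA value of each immediate early gene probe set (rows) on the control array (blue circles) and the transgenic array (red diamonds), 1 array each, with the floor of 5.76 as a dotted line. Every point lies well above the floor, Fos has the widest gap (10.75 against 11.35), and the 2 Jun probe sets differ in opposite directions.

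The AP-1 transcription factors, dimers of a FOS and a JUN protein, held the members with the most negative differences. Fos, the prototype of the class, read 10.75 on the transgenic and 11.35 on the control array, a log2 difference of -0.60, or 1.52-fold lower. Of kept genes, 2.91% had a lower difference than Fos and 10.3% lay at least as far from 0 in either direction. Fosb, which encodes a FOS relative that also dimerises with JUN proteins, read 8.76 against 9.18, a difference of -0.43 or 1.35-fold lower. The control value was thus the higher for both FOS members.

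At the probe set with the higher mean the JUN members differed less than the FOS members, but the probe sets of Jun disagreed. Jun encodes the main partner of FOS. Its probe set 1417409_at read 9.74 on the transgenic and 9.92 on the control array (difference -0.17), whereas 1448694_at read 9.64 and 9.16 (difference 0.47). With both averaged, Jun read 9.69 against 9.54 and was on the higher side by 0.15, so these arrays give no direction for Jun. The gap of 0.65 between its probe sets is wide. Over 5180 genes with at least 2 probe sets at the floor, the median gap between the pair with the highest means was 0.18, and 6.91% of genes had a gap as wide as that of Jun. The paired probe sets differed in sign in 30.7% of these genes. Junb, a JUN family member that often restrains Jun, had 1 probe set, at 8.35 against 8.49 (difference -0.14).

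The other transcription factors among the members went in different directions. Egr1, a zinc finger factor induced by MAP kinase signals, read 11.50 on the transgenic and 11.41 on the control array, a difference of 0.09. At the probe set with the higher mean it was the member furthest on the higher side, though Jun gave 0.47 at its other probe set. Of kept genes, 74.9% lay at least as far from 0 as Egr1. Nr4a1, an orphan nuclear receptor also known as Nur77, read 10.14 against 10.41, a difference of -0.27 or 1.21-fold lower. Of kept genes, 14.4% had a lower difference than Nr4a1.

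The Ier genes were nearly level between the arrays. Ier2, whose product is nuclear, read 8.76 on the transgenic and 8.77 on the control array (difference -0.02). Ier3, also called IEX-1 and known to modulate apoptosis, read 9.77 against 9.73 (difference 0.04). Both differences are smaller than the median gap of 0.18 between probe sets of the same gene.

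The members that end the response were both on the lower side. Dusp1 encodes a phosphatase that switches off MAP kinases in the nucleus, and it read 10.59 on the transgenic and 10.72 on the control array (difference -0.13). Zfp36 encodes tristetraprolin, which binds AU-rich elements and hastens the decay of early response messages. It read 8.86 against 9.19, a difference of -0.34 or 1.26-fold lower, with 10.6% of kept genes lower still. The differences of Fos, Fosb, Nr4a1 and Zfp36 exceeded that median probe set gap of 0.18. Those of the other 6 members, each at the probe set with the higher mean, did not. Differences of such size were common. Of kept genes, 36.4% lay at least as far from 0 as Nr4a1, and 54.8% as far as Jun at -0.17. Without replicate arrays, none of these differences can be set against the spread between animals.

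**Figure D2:**
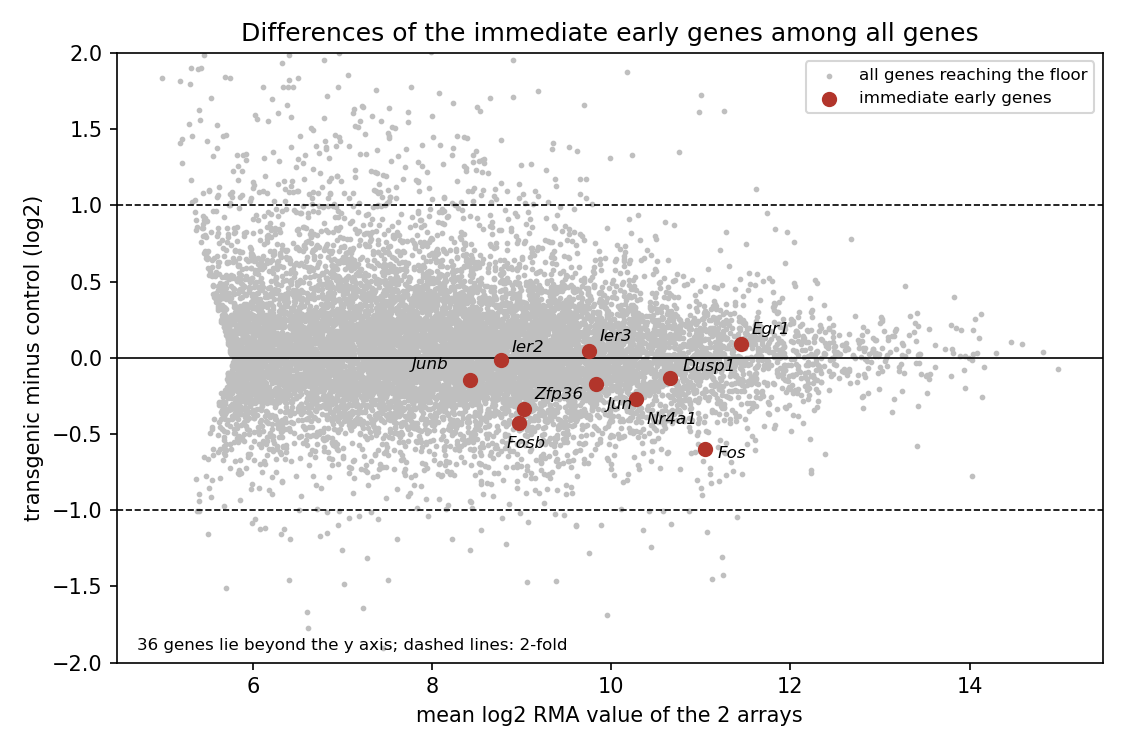
Transgenic minus control log2 difference (y axis) against the mean log2 value of both arrays (x axis) for 12143 kept genes in grey and the 10 immediate early genes in red, each at 1 probe set. All members lie between the dashed 2-fold lines and within the grey cloud, with Fos lowest at -0.60, and 36 other genes fall beyond the y axis.

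Relatives of the members, named after their values were seen, often stood on the other side of 0. The higher side was also the more common one over all kept genes, 6584 of 12143. Among FOS relatives, Fosl1 read 7.47 on the transgenic and 7.69 on the control array (difference -0.22), while Fosl2 had a difference of 0.37 at one probe set and -0.53 at another whose transgenic value lay below the floor. Jund, a JUN protein expressed without stimulation, was nearly level at 12.57 against 12.55. The list of 9 kept AP-1 and bZIP partners had 5 higher and 4 lower, a median of 0.025, and none past 1.5-fold. Fosl2 was its furthest higher gene and Mafg, a small MAF protein, its furthest lower at -0.25 (0.015 at its other probe set).

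The EGR and NR4A relatives were mostly higher where Egr1 was near level and Nr4a1 lower. Egr3, a zinc finger factor induced like Egr1, read 7.66 on the transgenic and 6.57 on the control array, a difference of 1.08 or 2.12-fold higher. Its other probe set, close to the floor, gave -0.033 (5.98 against 6.01), so the call rests on 1 of 2 probe sets. Egr2 read 6.32 against 5.82 (difference 0.50), and Egr4 stood close to the floor at 5.89 against 5.95 (difference -0.07).

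The nuclear receptor relatives of Nr4a1 were both higher at their brightest probe set. Nr4a2 read 9.002 on the transgenic and 8.56 on the control array (difference 0.44). Of its 4 other probe sets at the floor, 3 were also higher, and the range was -0.13 to 0.57. Nr4a3 read 7.98 against 7.51 (difference 0.47), with a dimmer probe set at -0.55. Of the 7 listed EGR and NR4A genes and their NAB cofactors, 5 were higher, 2 were lower and 1 passed the 2-fold size, with a median of 0.44. Over all kept genes 6584 of 12143 were higher, and 2.51% were 2-fold higher. When all probe sets of a gene were averaged, the median was 0.25 and none passed 2-fold.

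**Figure D3:**
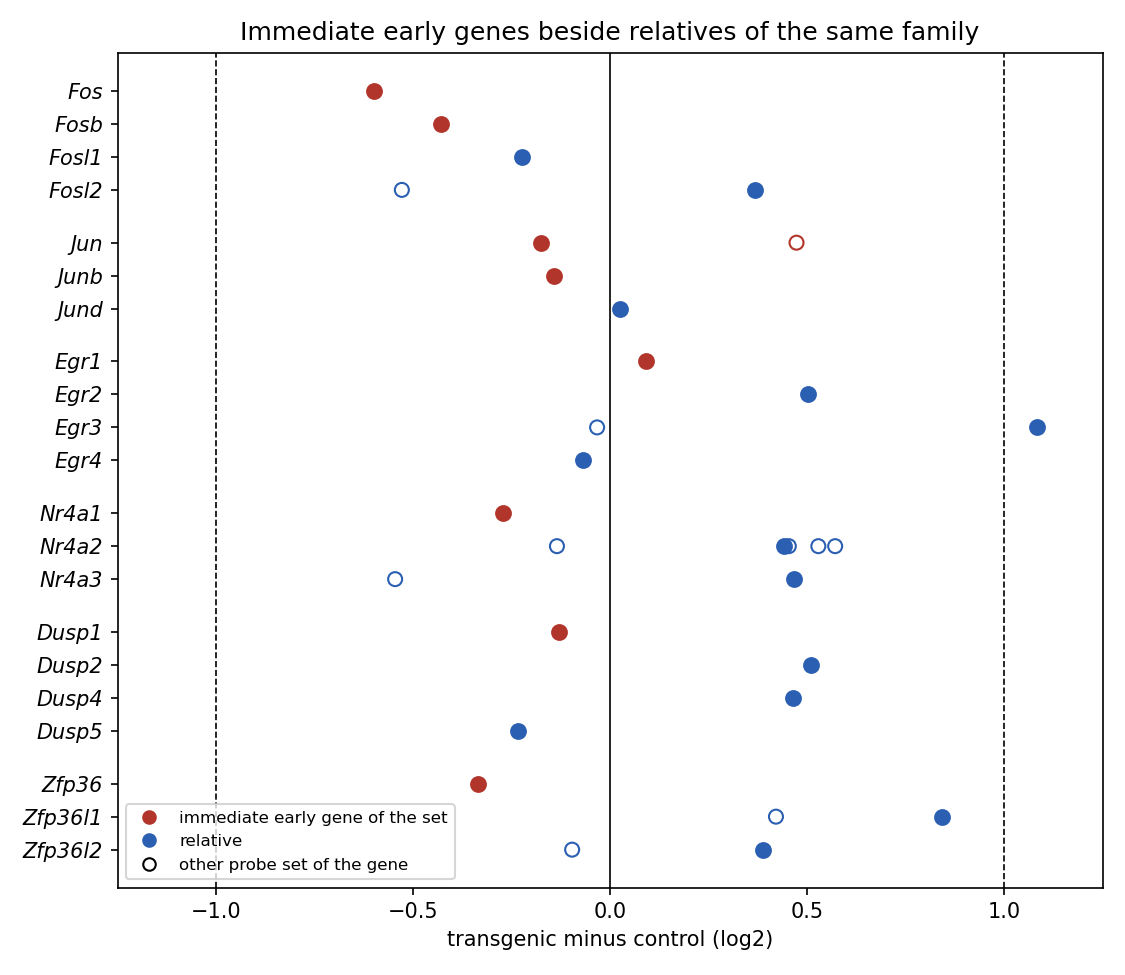
Transgenic minus control log2 difference (x axis) of the immediate early genes (red) and of relatives in the same family (blue). The Ier genes are not drawn. Filled circles mark the probe set with the highest mean, open circles other probe sets at the floor, and dashed lines 2-fold. Nr4a1, Dusp1 and Zfp36 lie left of 0 while the filled circles of Nr4a2, Nr4a3, Dusp2, Dusp4, Zfp36l1 and Zfp36l2 lie right of it, and that of Dusp5 lies left of it at -0.23.

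Inducible feedback inhibitors other than Dusp1 were also mostly on the higher side, as were 6584 of all 12143 kept genes. Dusp2 and Dusp4, phosphatases that act on MAP kinases in the nucleus like Dusp1, had differences of 0.51 and 0.46, and Dusp5, another nuclear one, had -0.23. Across the list of 18, which adds Sprouty, SPRED and other inhibitors, 13 were higher and 5 lower, with a median of 0.22. None passed 2-fold and 1 passed 1.5-fold on the higher side, the phosphatase gene Dusp14, at 8.003 against 7.40. The furthest lower was the Sprouty gene Spry2 at -0.34. For the tristetraprolin family the same contrast was seen. Zfp36l1 read 9.95 on the transgenic and 9.11 on the control array, 1.79-fold higher, and its other probe set gave 0.42. Zfp36l2 had a difference of 0.39 at its brightest probe set and -0.10 at another. The 12 kept AU-rich element binding and decay factors were divided evenly, 6 higher and 6 lower, with a median of 0.010. The furthest lower of them was Xrn1, the cytoplasmic 5' to 3' exonuclease, at -0.60, with 0.020 at its other probe set.

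The wider early response showed no common direction. Of 35 kept early response genes outside the 10 members, 18 were higher and 17 lower, with a median of 0.0079 and none past 2-fold. The furthest higher was Ccn1, a matricellular protein gene, at 8.30 against 7.45 (1.81-fold), with its other probe sets at -0.22 and 0.30. The furthest lower was Cebpd, a transcription factor of the acute phase response, at 9.23 against 10.001 (1.71-fold lower). Further genes known as neuronal activity or stress readouts were named after their values were seen. Npas4, induced by depolarisation, had a difference of -0.38, the antiproliferative genes Btg2 and Tob1 -0.35 and -0.46, and Arc, close to the floor, -0.0084. The other probe set of Btg2 gave 0.20. These genes are not typical of the list, which was split 18 to 17. On its higher side stood Plk2 at 0.43, Myc at 0.31 and Hbegf at 0.25, also named after their values were seen.

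As lists, genes that drive immediate early transcription had medians close to 0. Srf, which encodes serum response factor, and Creb1 were named after their values were seen. Srf read 9.13 on the transgenic and 9.09 on the control array, and Creb1 read 9.36 against 9.46. Of 17 kept upstream transcription factors 8 were higher and 9 lower (median -0.030), with Ets1 furthest higher at 0.40 and Elk1, an ETS partner of serum response factor, furthest lower at -0.44. On the transgenic array Elk1 was below the floor, at 5.49, where background compresses differences. Of 19 kept kinases 10 were higher and 9 lower (median 0.0092). Map2k6, which activates p38, stood at 0.70, with a control value of 5.88 close to the floor. The ribosomal S6 kinase gene Rps6ka3 stood at -0.39. At the brightest probe set no gene of these lists passed 2-fold, but dimmer probe sets at the floor did. That of Prkacb, a catalytic subunit of protein kinase A, gave -3.40, 1 of Braf gave -1.37 and 1 of Mef2c gave 1.35, named after their values were seen. With probe sets averaged, 1 kinase was 2-fold lower.

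A separate stress programme, the inducible heat shock genes, had its furthest members lower in the transgenic sample as well. Hspa1a and Hspa1b encode the stress-inducible HSP70 chaperones, and their probe sets can share signal because the genes are nearly identical. Hspa1a read 9.11 on the transgenic and 10.80 on the control array, 3.23-fold lower. Hspa1b read 10.54 against 11.96, 2.69-fold lower, with its other probe sets between -1.55 and -1.53. Dnajb1, their co-chaperone, was 2.43-fold lower, and its other probe set gave -0.45. At the brightest probe set the other 9 of the 12 listed genes did not pass 1.5-fold in either direction, though a dimmer probe set of Hspa8, the constitutive relative of HSP70, gave -1.02. Hspb1, a small heat shock protein gene, was furthest higher at 0.25. The median of the list was -0.14 with 3 genes 2-fold lower, where 0.511% of all kept genes were. Without probe sets of the classes that can match several transcripts it was -0.48 with 4 lower, and with probe sets averaged the call of Dnajb1 ended and 2 were lower. Hspa1a and Fos, each the furthest lower gene of its list, were thus both lower in the transgenic sample. With 1 array a genotype their relation was not tested.

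**Figure D4:**
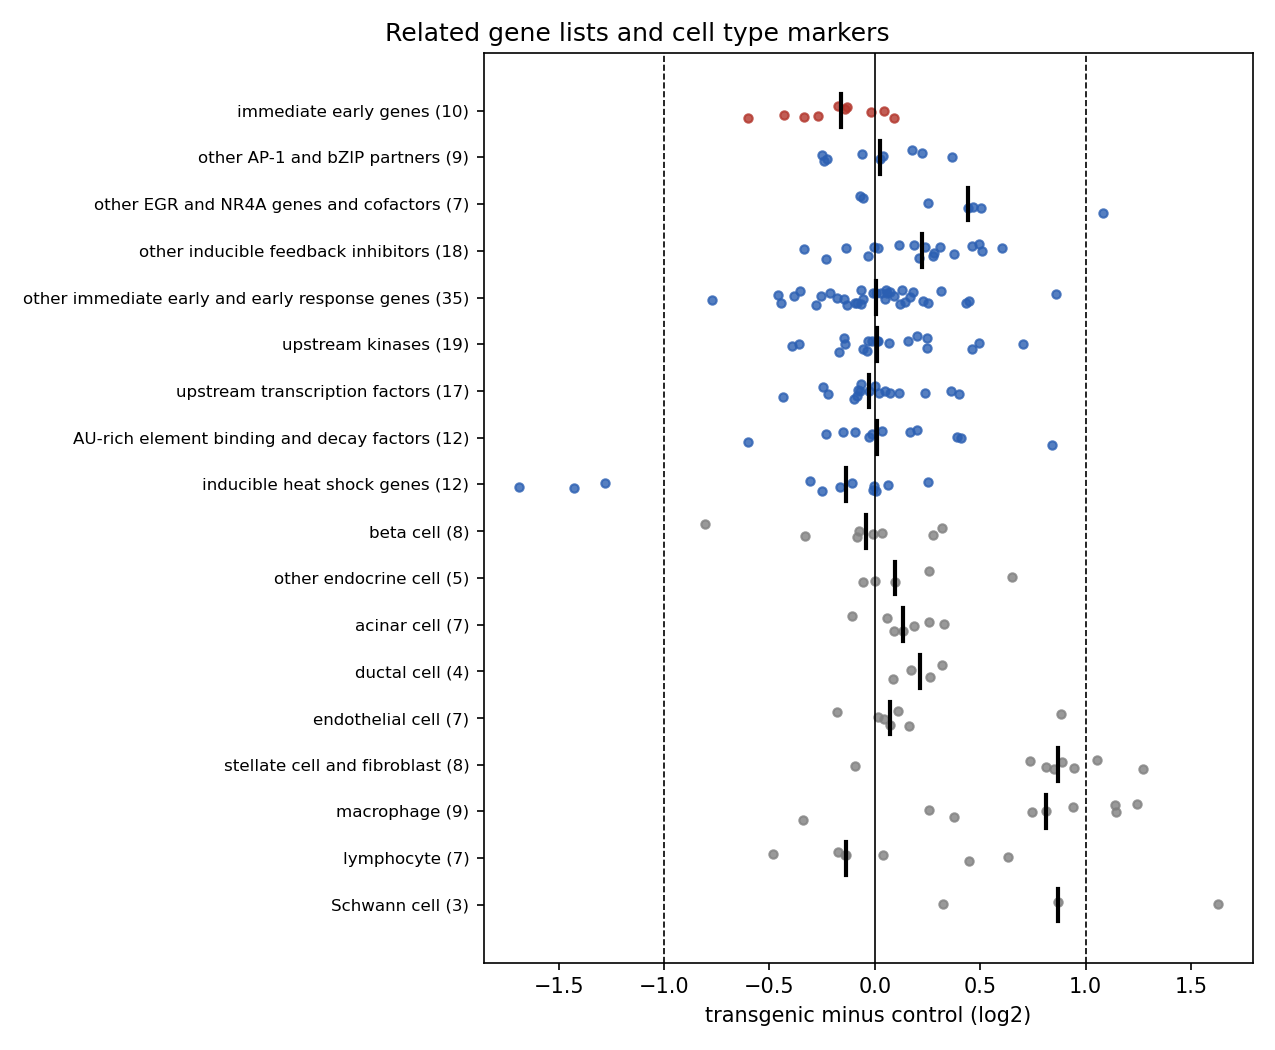
Transgenic minus control log2 difference (x axis) of each kept gene of the immediate early set (red), related gene lists (blue) and cell type markers (grey), with the number of genes in parentheses, black bars at the medians and dashed lines at 2-fold. The immediate early genes have a median of -0.16, the other EGR and NR4A genes 0.44, and the stellate cell and macrophage markers 0.87 and 0.81.

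The levels of some cell type markers and of the RNA controls were not equal between these samples. Cell proportions were not measured, and the part of either in the differences of the members was not tested. Of 9 kept macrophage markers 8 were higher, with a median of 0.81 and a summed level of 12.63 against 12.09 in log2. Of 8 kept stellate cell and fibroblast markers 7 were higher, with a median of 0.87 and summed levels of 12.83 against 11.93. The 3 kept Schwann cell markers were higher as well (median 0.87), and the 4 kept ductal markers had a median of 0.22. Beta cell markers (8 genes, median -0.042), other endocrine markers (5 genes, 0.094), acinar markers (7 genes, 0.13), endothelial markers (7 genes, 0.072) and lymphocyte markers (7 genes, -0.14) lay nearer to 0. Within these lists single markers lay further from 0, such as Ucn3 (beta cell, -0.81), Ghrl (other endocrine, 0.65) and Pecam1 (endothelial, 0.88). They were named after their values were seen. Itgam of the macrophage list and Col1a1 of the stellate list were below the floor on both arrays, as were the 4 neutrophil markers with a probe set. Among array controls, all 24 poly-A spike probe sets had more signal in the transgenic sample (median difference 1.51), as had all 18 hybridisation controls (0.40), and all 3 for 18S rRNA had less (-0.83). The 3' minus 5' difference, which grows as RNA breaks down, was 1.21 on the transgenic and 1.09 on the control array for Actb, and 0.55 and 0.68 for Gapdh.

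Sequence directly before the transcription start was available for 8 of the 10 members, from RefSeq (GRCm38.p6). Motifs known from immediate early promoters were searched on both strands in the 250 bases before the start, after the values were seen, and set beside all 32851 promoters of the table. The core of the cyclic AMP response element, TGACG, occurred in 5 of the 8 members (Fos, Fosb, Junb, Nr4a1 and Dusp1) and in 17.8% of all promoters. Nr4a1 held 4 copies. The full palindrome TGACGTCA, which contains the core on each strand, was found in Dusp1 alone among the members and in 1.55% of all promoters. An EGR site, GCGGGGGCG, was found in Fosb, Nr4a1 and Zfp36 (2.57% of all promoters), a CArG box, the site of serum response factor, in Zfp36 (1.47%), and TATAAA in Fos (12.4%). The AP-1 site TGAGTCA was in none of the 8 and in 4.46% of all promoters. A match is only a run of letters, and the window is short.

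The 150 bases before the start are shown for Fos, the member furthest from 0, for Zfp36 with its CArG box, for Dusp1 with the full palindrome and for Junb with the core alone. Capitals mark the motifs found. The intervals are chr12:85473740-85473889 on the plus strand, and chr7:28379229-28379378, chr17:26508473-26508622 and chr8:84978749-84978898 on the minus strand.
Fos: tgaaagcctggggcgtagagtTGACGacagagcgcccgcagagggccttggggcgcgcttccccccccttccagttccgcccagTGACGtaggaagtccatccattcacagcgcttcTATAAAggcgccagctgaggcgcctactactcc
Zfp36: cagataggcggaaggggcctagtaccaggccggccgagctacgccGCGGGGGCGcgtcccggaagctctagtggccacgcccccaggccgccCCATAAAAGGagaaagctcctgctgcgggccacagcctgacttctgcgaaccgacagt
Dusp1: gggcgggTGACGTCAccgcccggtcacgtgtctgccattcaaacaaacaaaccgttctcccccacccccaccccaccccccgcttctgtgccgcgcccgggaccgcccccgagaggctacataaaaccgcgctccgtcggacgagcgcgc
Junb: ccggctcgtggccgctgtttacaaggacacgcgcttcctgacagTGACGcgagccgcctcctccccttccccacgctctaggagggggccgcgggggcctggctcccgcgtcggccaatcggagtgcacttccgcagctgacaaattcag
In Fos the core nearest to the start lies 62 to 66 bases before it and TATAAA 28 to 33 bases before it. In Zfp36 the CArG box lies 49 to 58 bases before the start. In Dusp1 the palindrome lies 136 to 143 bases before the start, and in Junb the core lies 102 to 106 bases before it. The promoters with the core belonged to members with differences from -0.60 (Fos) to -0.13 (Dusp1). Those without it belonged to Jun (no settled direction), Zfp36 (-0.34) and Ier3 (0.04). At the probe set with the higher mean 8 of all 10 members were lower, and a relation of the core to the differences was not tested.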

How the data were processed

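The authors deposited log2 expression values, 1 per probe set and array, made with RMA in Affymetrix Expression Console, per the submitters' processing notes. Versions, and any other arrays normalized with these, are not stated there. RMA compresses differences near the background and gives no detection call. Arrays have no read depth, and their number, 1 a group, limits the precision.

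Groups were taken from the genotype label. The arrays hold 45101 probe sets, 64 of them controls. The platform's annotation gave a single gene symbol to 34945, several to 932 and none to 9160, and 34741 symbols were updated by Entrez identifier to the GRCm38.p6 gene table. A gene took its probe set with the highest mean and was kept when 1 value reached 5.76. The difference is transgenic minus control, described at 2-fold and 1.5-fold.

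The members and the 8 related and 10 marker lists were chosen with earlier results of these data known. Named genes were all members, and in each related list the gene furthest each way and any past 2-fold. Others are stated as named after their values were seen.

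Alternatives were a repeated quantile normalization, subtraction of a lowess trend (span 0.3), centring, averaging of probe sets, leaving out _s, _x and _a classes, other floors, another size and leaving out each member. Functions were tested on simulated data. Python 3.11.15, numpy 2.4.6, pandas 2.3.3, statsmodels 0.14.6 and matplotlib 3.10.9 were used.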

Additional observations from a re-analysis of the deposited data

How the results depend on the processing

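The median difference of the members, -0.16, ranged from -0.19 to -0.14 over 18 alternatives, including leaving out each member, and was negative in all of them. Leaving out a member could only give the value ranked next to the middle, -0.14 or -0.17. The other floors kept the same 10 members. Neither kind of setting could therefore change the sign. The count of members 2-fold lower was 0 under every alternative except the 1.5-fold size, where it was 1, and the count 2-fold higher was 0 under all, the 1.5-fold size included. Jun alone changed sign, to 0.15 with its probe sets averaged and to 0.47 at its other probe set, a setting added after seeing the data. With the probe sets averaged, 7 of 10 members were lower. Leaving out _s, _x and _a probe sets removed Ier3 and Zfp36. Of 49 alternative values of single members, 47 moved by less than 0.18, the median gap between probe sets of a gene. For the members other than Jun, each with 1 probe set, averaging or leaving out classes could not move the value. The Egr3 call ended with probe sets averaged and with the floor at the 75th percentile, which removed the gene. With probe sets averaged, the Dnajb1 call ended too (2 heat shock genes 2-fold lower in place of 3), and 1 upstream kinase was 2-fold lower in place of 0. The median of all kept genes lay between 0 and 0.029 throughout. No paired analysis was possible because each genotype had 1 array.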
